A study of Homo sapiens with 9 samples.

Results

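The genes described here encode the constitutive proteasome of BEAS-2B cells, an immortalized line of human bronchial epithelium. The set was the 43 genes whose symbols name the α and β subunits of the 20S core (14 genes), the ATPase and non-ATPase genes of the 19S particle (20 genes), the proteasome activators and their inhibitor (5 genes) and the chaperones of 20S assembly (4 genes), provided that a gene had at least 10 reads in at least 3 of the 9 libraries. All 43 passed, out of 63187 genes in the table and 16030 tested. PSMD5, PSMD9 and PSMD10 carry 19S names, but their products are chaperones of 19S assembly and not subunits of the finished particle. They are counted among the 20 genes of the 19S particle and its non-ATPase genes throughout. The inducible subunits of the immunoproteasome were left out of the set.

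The proteasome is the main protease for ubiquitin-tagged proteins in the cytosol and nucleus. Its barrel, the 20S core, is built of outer α rings, which gate the entrance, and inner β rings, in which PSMB5, PSMB6 and PSMB7 carry the chymotrypsin-like, caspase-like and trypsin-like sites. The 19S particle on its end recognizes ubiquitin, removes it and threads the substrate into the barrel with a ring of ATPases, while the PSME proteins form other caps. The subunits are made in matched amounts and their genes are known targets of the transcription factor NFE2L1, which raises their transcription when proteasome activity is short.

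RNA was sequenced from untreated cells (control) and from cells kept for 24 h with 2% (v/v) aerosol condensate from the carrier liquid of propylene glycol and vegetable glycerin (PG/VG), or from a Virginia tobacco flavored liquid with 18 mg/mL nicotine (EC). Each condition had 3 libraries, with the replicate numbers 2, 3 and 4, which the labels also give as the batch. The study calls them biological replicates, but the labels do not say whether they were separate cultures, so that the p-values measure the spread between these libraries. All of the groups are the same cell line without genetic change, nicotine and flavor came together in the EC liquid, and the effect of either alone cannot be told apart. Counts on genes were 16168260 to 24917838 per library, of which the 43 genes took 0.557% to 0.668%. The epithelial keratins KRT8, KRT18 and KRT7 were between 301 and 1173 CPM in every library (CPM is the count scaled to library size, with edgeR's TMM factors), but EPCAM reached at most 1.93 CPM and CDH1 at most 1.58 CPM, while the mesenchymal genes VIM and CDH2 were at 247 CPM or more. Basal, ciliated, secretory and lung lineage markers and those of blood and endothelium were all under 1 CPM. In EC vs. control the fitted log2 fold change (LFC) of the keratins KRT8, KRT18 and KRT7 was −0.25, −0.46 and −0.45, all past the threshold, while the other 3 of the 6 epithelial markers, KRT19, EPCAM and CDH1, had 0.18, 0.57 and 0.36, not called. Of the 4 mesenchymal markers, CDH2 was called lower at −0.25 and PDGFRB higher at 0.25 in EC, and in PG/VG vs. control VIM was called lower at −0.27 and COL1A1 and PDGFRB higher at 0.26 and 0.31, with none of the epithelial markers called. The part of these markers in the results on the proteasome genes was not tested.

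How well the counts measure each gene differed widely between the 43. In 35 genes every library had at least 1000 reads, in 6 the lowest library had at least 100 but under 1000, and in 2, PSMA2 and PSMA6, it had fewer. PSMA2, the α subunit gene on chromosome 7 (ENSG00000106588, 42916828 to 42932185, minus strand), had 23, 21 and 25 reads in control replicates 2, 3 and 4, 16, 4 and 14 in PG/VG and 16, 14 and 14 in EC. The PG/VG library of batch 3 was the lowest and every control library was above every treated one. The exact Poisson 95% intervals, which cover counting error only, ran from 13.0 to 32.1 reads for the lowest control library and from 9.15 to 26.0 for the highest treated ones, so that these intervals overlapped. They are intervals of raw counts in single libraries, and their overlap does not compare the groups. Scaled to library size, control replicate 3 was at 1.30 CPM, and PG/VG and EC replicates 2 at 0.655 and 0.634 CPM.

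The low count of PSMA2 goes with its place in the annotation. In GENCODE 44 all 1434 bases of its canonical transcript, with 8 exons, are also exons of ENSG00000256646, a gene on the same strand that has a row of its own in the table, with 2 reads over all 9 libraries. The authors' counting ignored reads that overlapped more than 1 gene. Of the 8378 exon bases of PSMA2, 5890 belonged to no other gene, and 5857 of these (99.4%) lay in introns of the canonical transcript, 33 outside it and 0 in its exons. The 147 reads of the PSMA2 row are therefore not reads of its spliced canonical transcript if the authors' annotation held the same overlap, which was not tested, and its values are given here as those of a row, not as the level of the mRNA. Divided by its canonical length, PSMA2 was at 0.968 CPM per kb in the control, where the 32 genes with no shared canonical exon had a median of 78.1 CPM per kb.

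PSMA6, another α subunit gene (ENSG00000100902, chromosome 14 from 35278633 to 35317493), shared 81.4% of its canonical transcript with ENSG00000258790 on the same strand. Of its 5587 exon bases in no other gene, 5332 (95.4%) lay in introns of the canonical transcript. It had 42, 60 and 102 reads in the control, 195, 92 and 66 in PG/VG and 68, 81 and 62 in EC, with the PG/VG library of batch 2 standing highest. PSMA1 shared 67.0% of its canonical transcript in the same way and PSMD9 28.8%. On the opposite strand PSMC1 shared 83.2% with NRDE2, PSMD7 51.6% with ENSG00000259972 and PSMC5 13.7% with FTSJ3, and because the strand setting of the counting is not given in the sources used here, reads of such pairs may have been lost or mixed. Annotated pseudogenes were found for 18 of the 43 genes. PSMC1 had 13, with 605 reads in all against its own 12278.

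**Figure D1:**
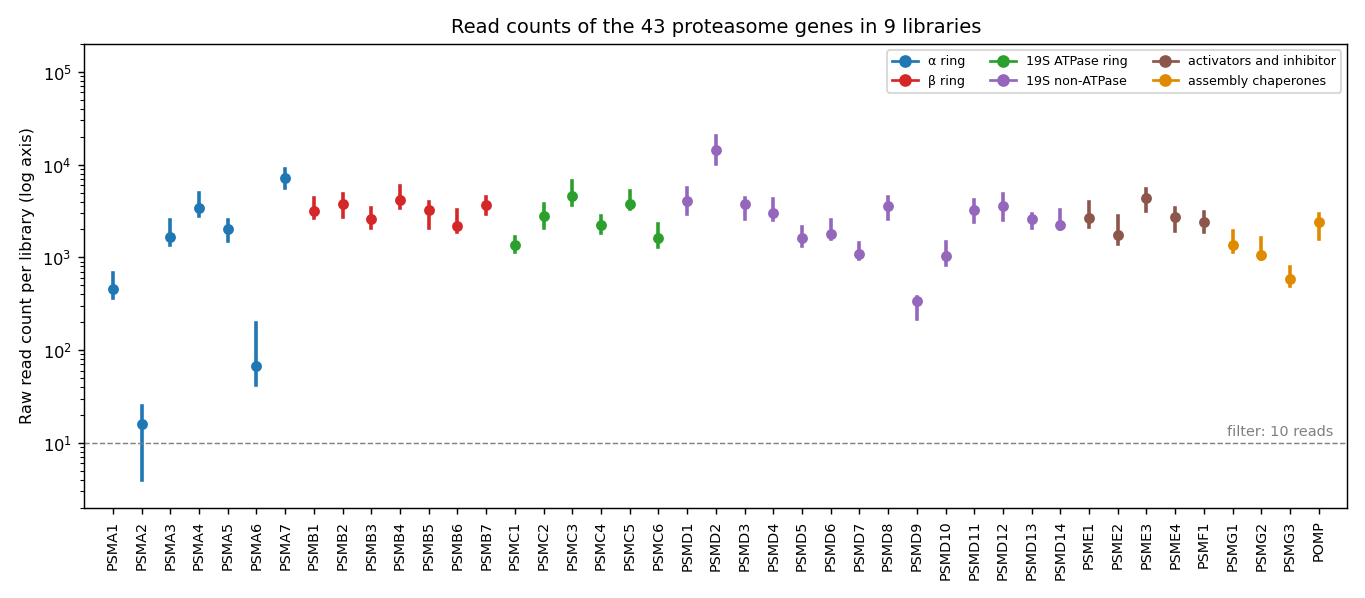
Raw read counts of the 43 genes on a log axis, with a point at the median and a bar from the lowest to the highest of the 9 libraries, colored by role. PSMA2 at 4 to 25 reads and PSMA6 at 42 to 195 lie far below the other genes, and the dashed line marks the filter of 10 reads.

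Among the 32 genes with no shared canonical exon, the level in the control per kb of canonical transcript ran from 14.5 CPM per kb for PSMF1, the gene of an inhibitor of the 20S core, to 389 CPM per kb for PSMA7, an α subunit gene. The 7 β genes had a median of 182 CPM per kb and ranged from 41.6 for PSMB2 to 246 for PSMB4. The catalytic genes PSMB5, PSMB6 and PSMB7 were at 149, 149 and 194 CPM per kb, and PSMB5 and PSMB6 did not differ beyond the SD of their libraries. Among the genes with 19S names PSMD2, the gene of the Rpn1 scaffold that docks ubiquitin receptors, stood at 265 CPM per kb, and PSMD5, of the 19S assembly chaperones, at 27.0. The assembly chaperones ranged from 22.9 for PSMG3 to 84.9 for POMP. These levels depend on the transcript taken as canonical, since long alternative ends change the length and not the count. The α subunits stand in equal number in their ring, and the 4 α genes without shared exons ranged from 26.7 CPM per kb for PSMA5 to 389 for PSMA7.

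The genes differed in how far they varied over the 9 libraries. The highest library was at most 1.5 times the lowest in 35 of the 43 genes, with a median ratio of 1.31 and the smallest, 1.14, in PSMD4, the gene of a ubiquitin receptor. PSMD2 reached 1.88, PSMA6 2.99 and PSMA2 6.68. The summed CPM of all 43 genes was 5991, 5951 and 6716 in control replicates 2, 3 and 4, 5669, 5795 and 6062 in PG/VG and 5968, 5533 and 5828 in EC. Batch 4 held the highest control library, and the EC library of batch 2 was nearly at the level of its control. The means were 6219.5 ± 430.5 in the control, 5842 ± 200.5 in PG/VG and 5777 ± 222 in EC (SD, n = 3 each), and the ranges of the 3 groups overlapped.

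Promoter sequences are shown for a motif that NFE2L1 and its relative NFE2L2 are known to bind, the core of the antioxidant response element, written TGACNNNGC with N for any base. RefSeq promoters (GRCh38.p14) were found for 37 of the 43 genes, all but PSMA7, PSMB1, PSMB6, PSMB7, PSMD4 and PSMG3. On either strand of the 250 bases before the start, the core was present in 10 of the 37 (27.0%) and in 11.0% of 27305 promoters. The windows printed here have the core in capitals and run 5′ to 3′ on the strand of the core. PSMG1 is shown because it was called lower in EC, PSMB3 because it came next to the threshold in PG/VG, and PSMD3, PSMD12 and PSME1 because they differed between batches. Of the genes called in EC only PSMG1 held the core, and PSMA2, PSMC1, PSMD2 and PSMD13 did not. PSME2 and PSMG2, which also differed between batches, held the core too and are not printed. Whether the core goes with the calls was not tested.
PSMG1: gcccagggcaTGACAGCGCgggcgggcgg
PSMB3: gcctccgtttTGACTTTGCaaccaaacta
PSMD3: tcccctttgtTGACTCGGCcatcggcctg
PSMD12: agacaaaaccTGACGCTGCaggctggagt
PSME1: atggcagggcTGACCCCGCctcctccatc
They lie at chr21:39183616-39183644 (minus strand), with the core 183 bases before the start for PSMG1, at chr17:38752627-38752655 (plus strand), with the core 104 bases before the start for PSMB3, at chr17:39980760-39980788 (plus strand), with the core 37 bases before the start for PSMD3, at chr17:67366724-67366752 (minus strand), with the core 165 bases before the start for PSMD12 and at chr14:24136098-24136126 (plus strand), with the core 86 bases before the start for PSME1.
Other motifs found in the same windows were the CCAAT box (CCAAT, 16 of 37 genes, 43.2%, and 33.0% of all promoters), an ETS site (CCGGAAG, 9 genes, 24.3%, and 8.82% of all) and the GC box (GGGCGG, 24 genes, 64.9%, and 42.3% of all), each searched on both strands. These are matches of letters, and no binding was measured.

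In EC vs. control, 5 of the 43 genes passed the threshold (edgeR's quasi-likelihood test with the batch in the model, Benjamini-Hochberg adjusted p under 0.05), all lower in EC, which is 11.6% of the set where 13.5% of all tested genes were called in either direction and 5.38% were called lower. They were PSMD2 and PSMD13 of the 19S particle, the ATPase gene PSMC1, the assembly chaperone gene PSMG1, and the PSMA2 row. The share of genes with an unadjusted p under 0.05 was 12 of 43 (27.9%), close to the 27.4% of all genes. Direction was less even, since 36 of the 43 (83.7%) had an LFC below 0 against 48.5% of all genes, with a median of −0.10 where the median of all genes was 0.0078. In bulk RNA, fewer cells of a type and less RNA per cell cannot be told apart.

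PSMD2 (ENSG00000175166, chromosome 3 from 184299198 to 184309050) was at 638, 655 and 1024 CPM in control replicates 2, 3 and 4, at 584, 601 and 882 CPM with PG/VG and at 575, 545 and 813 CPM with EC. The batch 4 libraries were the highest of every condition, so that the ranges overlapped, but EC was below the control of its own batch in 3 of 3 batches. The LFC in EC was −0.25 (SE 0.0657, adjusted p = 0.0134, edgeR), or 0.841-fold. PSMD13 (ENSG00000185627, chromosome 11 from 236966 to 252984), which encodes a subunit of the 19S lid, was at 131, 131 and 146 CPM in the control, 115, 124 and 123 CPM with PG/VG and 117, 109 and 116 CPM with EC, and all control libraries were above all treated ones. Its LFC was −0.25 (SE 0.0700, adjusted p = 0.02, edgeR). For PSMC1 (ENSG00000100764, chromosome 14 from 90256527 to 90275429), which encodes the ATPase Rpt2, the libraries read 71.8, 70.6 and 76.2 CPM in the control, 67.3, 67.2 and 63.5 CPM with PG/VG and 65.1, 62.5 and 58.4 CPM with EC. Neither treatment overlapped the control, and the LFC was −0.23 (SE 0.0746, adjusted p = 0.0398, edgeR), in a gene that shares most of its exons with NRDE2. PSMG1 (ENSG00000183527, chromosome 21 from 39174769 to 39183488), which encodes a chaperone of the α ring, was at 85.7, 80.7 and 68.0 CPM in the control, 78.4, 67.5 and 60.5 CPM with PG/VG and 74.8, 66.5 and 56.5 CPM with EC. Here the batch 4 libraries were the lowest of each condition. The LFC was −0.25 (SE 0.0712, adjusted p = 0.023, edgeR). The PSMA2 row, at 1.39 ± 0.0816 CPM in the control and 0.641 ± 0.0495 CPM with EC (SD, n = 3 each), had the largest LFC of the set, −1.11 (SE 0.348, adjusted p = 0.0362, edgeR).

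None of these 5 calls stood in every fit. PSMD2, PSMD13 and PSMG1 were called in 5 of the 9 fits that left out 1 library and PSMC1 and PSMA2 in 3, and without control replicate 3, control replicate 4, EC replicate 3 or EC replicate 4 the count of called genes was 0. The unadjusted p was under 0.05 in 6 to 9 genes of those 4 fits. Over all genes these fits called 1162, 1481, 1392 and 1303, in that order, against 2157 in the main fit. Without EC replicate 2 the count of called genes was 8, with PSMB1, PSMB3, PSMB6 and PSMC5 added and PSMA2 lost. DESeq2 with the batch in the model called the same 4 genes other than PSMA2, among 1718 of all genes. Without a replicate block edgeR called 0, with 4 genes at an unadjusted p under 0.05, and without any TMM scaling it called only PSMA2 of the 43. Of all 16030 genes, 16 were called without the block, so that 0 there is not particular to the 43. Without TMM scaling 2349 were called.

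By role, the ATPase ring had all 6 genes below 0 in EC (median LFC −0.13), from PSMC1 to PSMC2 at −0.0065, with 1 called. Its summed level was 880.4, 882 and 865 CPM in the control and 884, 796 and 737 CPM with EC, lower in batches 3 and 4 and not in batch 2. Of the 14 non-ATPase genes 12 were below 0, 2 were called, and the median was −0.072. PSMD7, a lid subunit gene whose levels of 56.1, 56.9 and 49.2 CPM with EC lay below the control's 60.2, 65.5 and 60.8 CPM, had an LFC of −0.20 (SE 0.0788, adjusted p = 0.0951, edgeR), and PSMD5, which also did not overlap, had −0.17 (SE 0.0797, adjusted p = 0.171, edgeR). PSMD14, the gene of the deubiquitinase of the lid, and PSMD4 had an LFC of −0.10 and −0.024, neither called.

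All 7 β genes were also below 0 in EC, with a median LFC of −0.13 and 0 called (edgeR; 2 had an unadjusted p under 0.05). PSMB5 was at 132, 152 and 183 CPM in the control, 127, 151 and 155 CPM with PG/VG and 156, 145 and 162 CPM with EC. It was above its control in batch 2 and below it in batches 3 and 4, with an LFC of −0.0038 (SE 0.0781, adjusted p = 0.982, edgeR). PSMB6 followed the same course, with 118, 128 and 123 CPM in the control, 109, 116 and 96.1 CPM with PG/VG and 127, 105 and 94.7 CPM with EC, and an LFC of −0.18 (SE 0.0824, adjusted p = 0.159, edgeR). PSMB7 read 185, 180.4 and 207 CPM in the control, 165, 175 and 167 CPM with PG/VG and 179, 163 and 175 CPM with EC. Its treated libraries all lay below the control, and the LFC was −0.15 (SE 0.0705, adjusted p = 0.181, edgeR). The α ring without the PSMA2 row gave no call, with LFCs between −0.42 for PSMA6 and 0.038 for PSMA3. In the chaperones PSMG3 had −0.22 (SE 0.0850, adjusted p = 0.0927, edgeR), PSMG2 −0.075 and POMP, which completes the β ring, 0.013.

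The 5 activator and inhibitor genes lay between −0.13 and 0.067 in EC. PSME1 and PSME2, which together form an interferon-inducible cap, had an LFC of 0.067 and 0.046 in EC, PSME3, of the nuclear cap, −0.13, PSME4 −0.029 and PSMF1 −0.038, none of them called (edgeR; 0 of 5 with an unadjusted p under 0.05, and 0 called with DESeq2). That they differed from the other roles was not tested. Their summed level was 682 ± 11.7 CPM in the control, 692 ± 10.2 CPM with PG/VG and 668 ± 15.2 CPM with EC (SD, n = 3 each).

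Within the batches, the difference of EC from its control was uneven. The median over the 43 genes was −0.0027, −0.067 and −0.17 in batches 2, 3 and 4. It was 0.037, −0.15 and −0.24 in the β ring, −0.010, −0.16 and −0.23 in the ATPase ring, −0.056, −0.045 and −0.16 in the non-ATPase genes and −0.13, −0.15 and −0.19 in the chaperones, which alone of these were below −0.1 in every batch. PSMD2 differed by −0.15, −0.27 and −0.33, PSMD13 by −0.16, −0.26 and −0.33, PSMC1 by −0.14, −0.17 and −0.38 and PSMG1 by −0.20, −0.28 and −0.27. In 7 of the 43 genes (16.3%) all 3 EC libraries were below all 3 control libraries, as in 7.43% of all genes. Leaving out batch 4 altogether, chosen after seeing the data, left 0 calls in edgeR, 6 genes with an unadjusted p under 0.05 and a median LFC of −0.070. Of all genes, 1216 of 15488 were called in that fit.

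**Figure D2:**
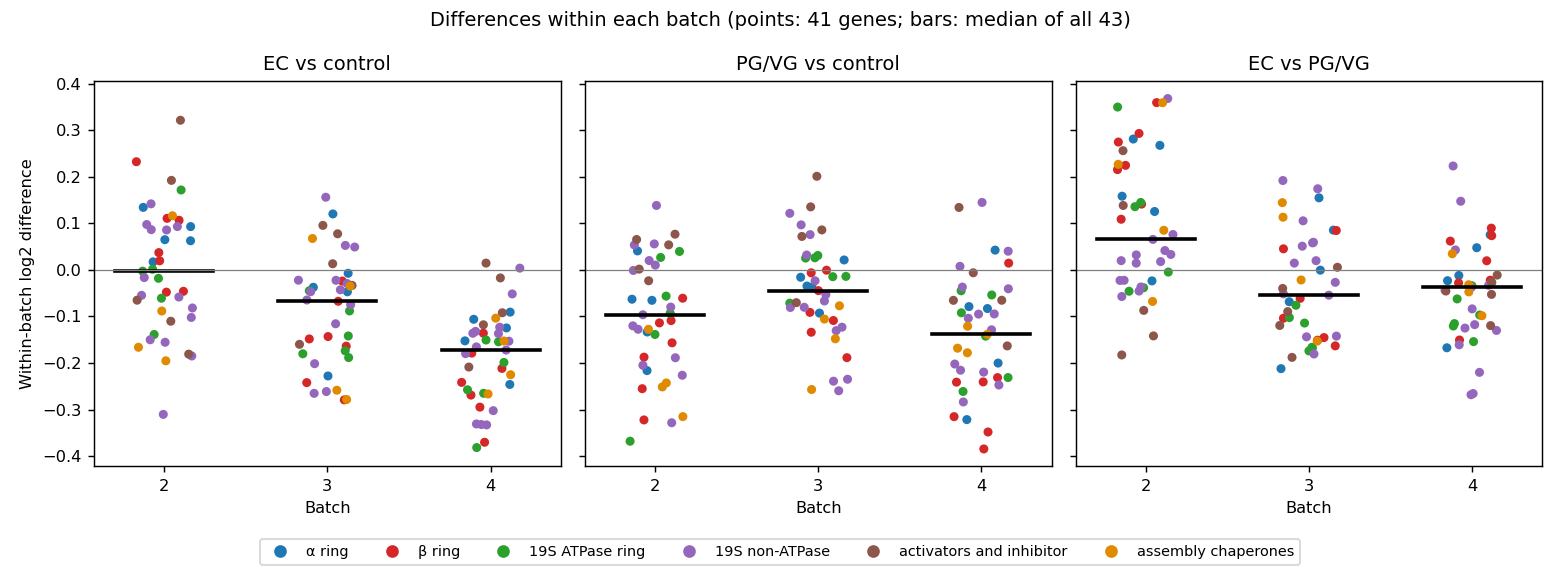
Log2 difference within each batch, in 1 panel for each treatment against the control and 1 for EC vs. PG/VG, with a point for each of 41 genes (PSMA2 and PSMA6 are off this scale) colored by role and a bar at the median of all 43. For EC vs. control the bars lie at −0.0027, −0.067 and −0.17 in batches 2, 3 and 4, and for PG/VG vs. control at −0.10, −0.044 and −0.14.

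In PG/VG vs. control, 1 of the 43 genes (2.33%) was called, the PSMA2 row, where 4.54% of all genes were called in either direction and 1.90% were called lower. It was at 0.491 ± 0.237 CPM (SD, n = 3), an LFC of −1.47 (SE 0.364, adjusted p = 0.0203, edgeR), and each library was below each control library. The call was lost in 6 of the 9 fits without 1 library and under DESeq2, which in turn called PSMB1, and the filter of 10 reads in every library removed the gene, since PG/VG replicate 3 had 4. An LFC below 0 was found in 34 of the 43 (79.1%, and 47.1% of all genes), with a median of −0.10 where all genes had 0.013. With an unadjusted p under 0.05 there were 11 (25.6%, and 20.1% of all genes), and the libraries of 9 (20.9%, and 6.39% of all genes) lay all below the control.

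The β ring held 4 of these 9 genes. PSMB3 was at 132, 136 and 147 CPM in the control, 106, 128 and 112 CPM with PG/VG and 136, 115 and 119.5 CPM with EC, and its LFC in PG/VG was −0.27 (SE 0.0828, adjusted p = 0.0669, edgeR). For PSMB1 the libraries read 171, 169.8 and 179.6 CPM in the control, 143, 149 and 152 CPM with PG/VG and 173, 154 and 149 CPM with EC, with an LFC of −0.23 (SE 0.0718, adjusted p = 0.068, edgeR) in PG/VG. Both encode structural β subunits without a catalytic site, and both missed the threshold. PSMB6 and PSMB7 were also below the control in every PG/VG library, with an LFC of −0.20 and −0.17, and PSMB5 had −0.11. The summed β level was 1134, 1159.6 and 1278 CPM in the control, 1008, 1100.5 and 1088 CPM with PG/VG and 1178, 1048 and 1088 CPM with EC. Within batches 2, 3 and 4 the median difference of the β genes in PG/VG was −0.16, −0.091 and −0.24.

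All 4 chaperone genes were below the control of their batch in 3 of 3 batches in PG/VG, with an LFC of −0.18 for PSMG1, −0.20 for PSMG2, −0.18 for PSMG3 and −0.15 for POMP, none past the threshold (edgeR, adjusted p from 0.126 to 0.289). With ComBat-Seq before DESeq2, PSMG1 and PSMG2 were called lower in PG/VG, as were PSMD2 and PSMD13 of the 19S particle and PSMB1, PSMB3 and PSMB7 of the β ring. That fit called 1682 of 16100 genes in all. The summed level of the 4 chaperone genes was 295, 272 and 288 CPM in the control and 252, 246 and 261 CPM in PG/VG, without overlap. Of the 20 genes of the 19S particle 16 were below 0 and 0 called (edgeR, and DESeq2 with the batch in the model; 3 with an unadjusted p under 0.05). PSMD13 had −0.17 (SE 0.0700, adjusted p = 0.16, edgeR), PSMD2 −0.16 and PSMC1 −0.14, while PSMD1, the gene of a scaffold subunit, was at 0.10. In the activators 4 of 5 were above 0, up to 0.069 for PSME4.

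**Figure D3:**
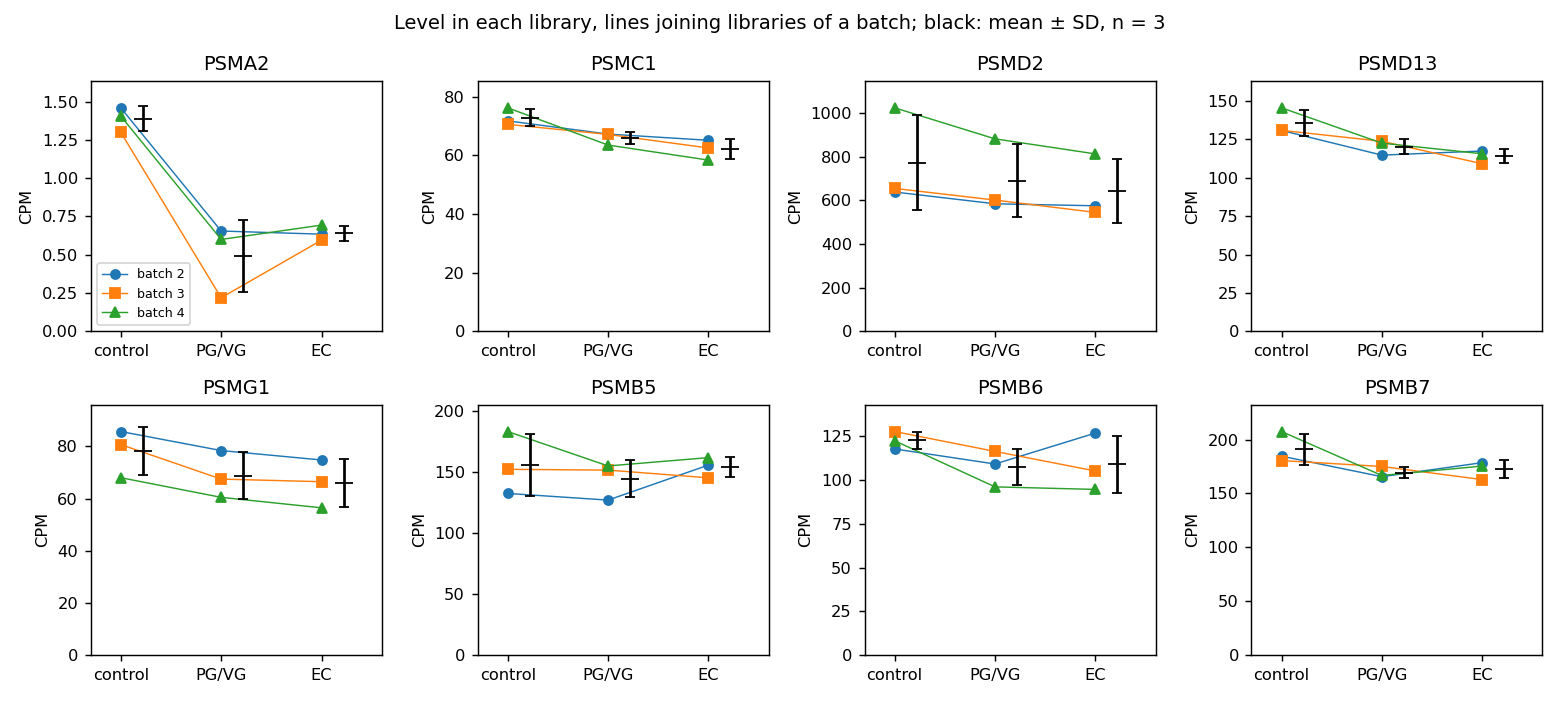
CPM in each library of the 5 genes called in EC and of the 3 catalytic genes, with lines joining libraries of the same batch and black marks for the mean ± SD (n = 3). PSMD2 separates batch 4 from batches 2 and 3 in each condition. PSMA2, PSMC1 and PSMD13, and also PSMB7, which was not called, have all 3 EC libraries below the control.

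Between the treatments, EC vs. PG/VG, 0 of the 43 genes were called in edgeR, where 0.855% of all genes were. DESeq2 also called 0, among 167 of 16030 genes. The unadjusted p was under 0.05 in 1 gene (2.33%, and 12.9% of all genes), POMP, with 0.16 (SE 0.0759, adjusted p = 0.381, edgeR). The median LFC was −0.0025, and 22 of 43 (51.2%) lay below 0, where 49.3% of all genes did. A missed threshold does not show equal levels. On the 4 residual degrees of freedom, the 95% interval of the difference was −0.28 to 0.089 for PSMD2, −0.27 to 0.12 for PSMD13, −0.13 to 0.33 for PSMB3, −0.11 to 0.32 for PSMB5 and −0.72 to 1.45 for the PSMA2 row. The edgeR p-values do not rest on these 4 degrees of freedom, so that the intervals are wider than the p-values imply. For POMP, with an unadjusted p of 0.0471 (edgeR), the interval was −0.051 to 0.37 and held 0. The core and the 19S particle leaned to different sides, with 12 of the 14 core genes above 0, all 7 β genes among them, and 15 of the 20 of the 19S particle below 0. Over the β genes the median difference was 0.22, −0.10 and 0.020 in batches 2, 3 and 4, and over the 19S genes it was 0.019, −0.053 and −0.11. The β side was thus largest in batch 2 and reversed in batch 3, and the 19S side was not seen in batch 2. The sign of the LFC held in all 3 batches in 0 of the 14 core genes and 6 of the 20 of the 19S particle. PSMA6 had the widest value, −0.77 (SE 0.449, adjusted p = 0.557, edgeR), and was called lower without PG/VG replicate 4, or when only these 2 groups were fitted.

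**Figure D4:**
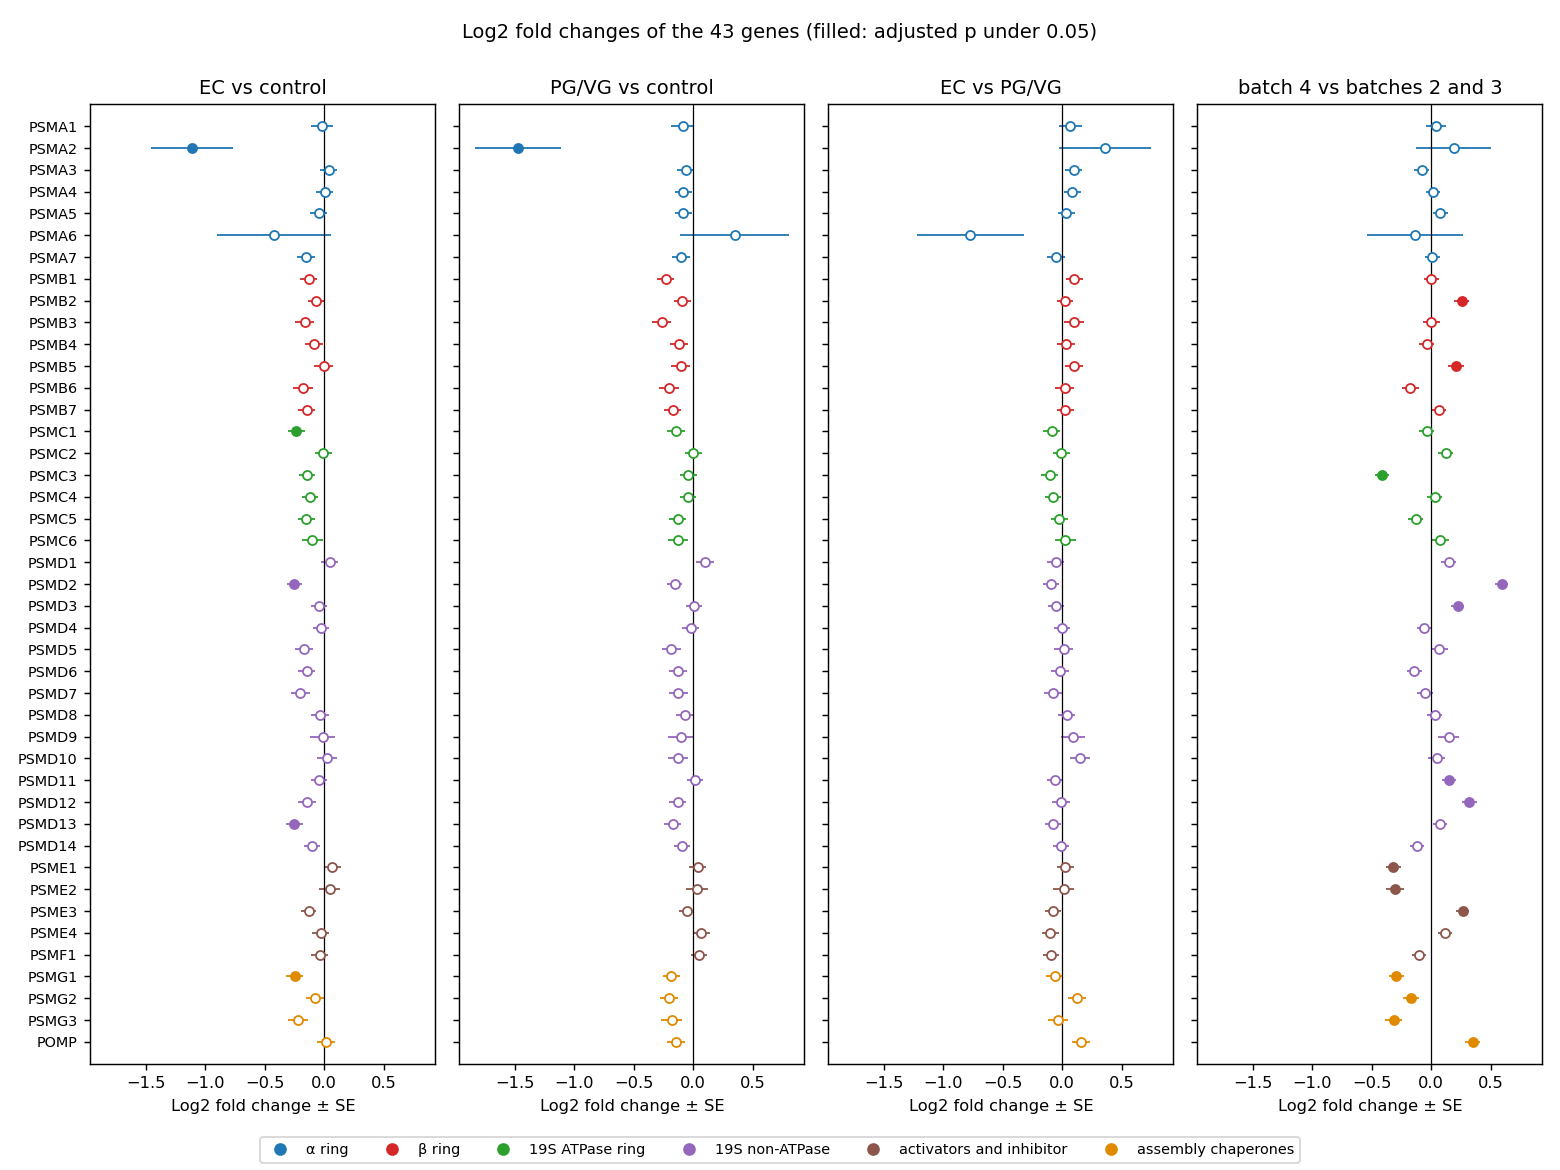
LFC ± SE of the 43 genes, with 1 panel each for the treatments against the control, for EC vs. PG/VG and for batch 4 vs. batches 2 and 3, colored by role and filled where the adjusted p was under 0.05 (edgeR, n = 3 libraries per condition or batch). The treatments have 5, 1 and 0 filled points, all to the left of 0, and the batch comparison 14, with 8 on the right and 6 on the left.

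More of these genes were called between batches than with either treatment. The batch comparison sets 3 libraries against 6 and each treatment comparison 3 against 3, so that these counts do not come from like tests. In the same fit, batch 4 vs. batches 2 and 3 called 14 of the 43 (32.6%), 8 higher and 6 lower, where 40.6% of all genes were called, 20.1% higher and 20.5% lower. PSMD2 was the largest, at 0.59 (SE 0.0557, adjusted p = 1.06e-08, edgeR), followed among the higher ones by POMP at 0.35, PSMD12 at 0.32, PSME3 at 0.27, PSMB2 at 0.26, PSMD3 at 0.22, PSMB5 at 0.21 and PSMD11 at 0.15. PSMD3, PSMD11 and PSMD12 encode lid subunits. Lower in batch 4 were the ATPase gene PSMC3 at −0.41, PSME1 at −0.32, PSME2 at −0.30, and the chaperones PSMG1 at −0.29, PSMG2 at −0.17 and PSMG3 at −0.32. PSMC3 was at 263, 276 and 218 CPM in the control, 271, 273 and 198 CPM with PG/VG and 264, 243 and 183 CPM with EC, and its batch 4 libraries lay below all others. POMP, at 107, 97.4 and 136, 90.3, 92.3 and 125 and 116, 102 and 123 CPM in the same order, had its batch 4 libraries above all others. The chaperones PSMG1 to PSMG3 and POMP, which act in the same assembly, differed in opposite directions. Of the 6 epithelial markers 4 were also called lower in batch 4, KRT8, KRT18 and KRT7 at −0.40, −0.58 and −0.97 and the hardly detected CDH1 at −2.08, with KRT19 at −0.14 and EPCAM at 0.26 not called. Of the 4 mesenchymal markers 3 were called lower, CDH2 at −0.33, COL1A1 at −0.73 and PDGFRB at −1.38, and VIM, at 0.080, was not called. The part of these markers was not tested, and what the batches had in common other than their number is not given in the labels.

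Of the genes around the proteasome, the inducible β subunits PSMB8, PSMB9 and PSMB10 were all above 0 in both treatments and not called (edgeR; 0 of 3 with an unadjusted p under 0.05 in either treatment), at 0.091, 0.19 and 0.26 in the EC comparison, and 0.12, 0.25 and 0.21 in the PG/VG comparison. Without control replicate 4 PSMB9 was called higher in both treatments, at 0.38 (adjusted p = 0.0157, edgeR) in EC and 0.44 (adjusted p = 0.0143, edgeR) in PG/VG, and also in EC with batch 4 left out. In batch 2 all 3 were above the control with EC, with a median difference of 0.52 and in batch 4 the median was −0.14. All 3 were lower in batch 4 than in the other batches, like PSME1 and PSME2. PSMA8 had 0 reads and PSMB11 at most 1 per library, and neither was tested. PSMB10 shared 56.1% of its canonical transcript with ENSG00000261884 on the same strand, which had 216 reads against 1399 of PSMB10. NFE2L1 was at 364, 386 and 350.3 CPM in the control, 448, 436 and 393 CPM with PG/VG and 382, 419 and 379.7 CPM with EC, with an LFC of 0.21 (SE 0.0659, adjusted p = 0.063, edgeR) in PG/VG and 0.10 in EC. NFE2L2 and the genes of NFE2L1 processing, DDI2 and NGLY1, gave no call either.

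Of 12 further subunits and associated factors, 0 were called in PG/VG (edgeR, 1 with an unadjusted p under 0.05). In EC 1 (8.33%) was called, and lower, where 13.5% of all genes were called and 5.38% were called lower. It was UCHL5, a deubiquitinase of the 19S particle, at 94.9, 83.3 and 80.0 CPM in the control and 72.5, 66.6 and 75.6 CPM with EC, without overlap, with an LFC of −0.26 (SE 0.0749, adjusted p = 0.0213, edgeR), and it was called in 5 of the 9 fits without 1 library. Of 14 genes of ubiquitin, its activation and delivery, 2 were called in EC (14.3%, and 13.5% of all genes) and 1 in PG/VG (7.14%, and 4.54% of all genes). All were lower, where 5.38% of all genes were called lower in EC and 1.90% in PG/VG. These shares rest on 2 genes and 1 gene. RPS27A, which encodes ubiquitin fused to a ribosomal protein, was at 579, 586 and 508 CPM in the control, 469.97, 477 and 353 CPM with PG/VG and 542, 466 and 364 CPM with EC. The batch 4 library was the lowest of each condition, and all PG/VG libraries were below the control. The gene had −0.30 (SE 0.0734, adjusted p = 0.00802, edgeR) in EC and −0.38 (SE 0.0735, adjusted p = 0.00427, edgeR) in PG/VG, and was called in 6 and 9 of the 9 fits. RPS27A shared 31.7% of its canonical transcript with genes on the opposite strand. It had 19 annotated pseudogenes, with 221 reads in all against its own 88066. The ubiquitin gene UBB, which shared 49.4% of its canonical transcript with ENSG00000265401 on the opposite strand, and the activating enzyme gene UBA1 were not called in either treatment.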

How the data were processed

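RNA-seq was performed on BEAS-2B cells, with 3 libraries each of control, PG/VG and EC. Per the labels and the study's methods, fastp trimmed the reads and STAR mapped them to GRCh38.p12. The authors deposited raw counts on Ensembl exons made with featureCounts (Subread 2.0.4), with multi-mapping and multi-overlapping reads ignored. Strand setting: not given in the sources used here. The deposited counts were neither batch-adjusted nor filtered, and a row is 1 gene.

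The filter kept genes that had 10 counts or more in 3 libraries or more. The test was that of edgeR 4.0.16 in R 4.3.3 (TMM, robust quasi-likelihood, condition and batch as terms, Benjamini-Hochberg over 16030 genes, threshold 0.05). The batch number was kept as a block because the labels name it as the batch. Libraries of the same number had correlated deviations (0.401 to 0.765 in 9 pairs), and libraries of different numbers had −0.618 to 0.512 in 18 pairs. Pairs of batch 2 with batch 3 had 0.347 to 0.512, much like same-number pairs of these batches (0.401 to 0.4885). All negative values came from pairs of batch 4 with another batch. This sets batch 4 apart, but cannot show that batches 2 and 3 pair by number. No 2 replicates were duplicates (chi-square per gene at least 3.88). The SE of an LFC was taken as its size over the root of the F statistic, and within-batch differences used a prior count of 0.5. Coordinates and transcript lengths came from GENCODE 44 on GRCh38 (62666 of 63187 identifiers matched), and promoters from RefSeq. The steps were tested on simulated data with larger changes than most genes had here, which does not show how well such small changes are detected.

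The 43 genes and all lists were chosen with earlier results of these data known. Every gene of the set may be named. Values per library are given for genes called in EC or PG/VG vs. control, for the 3 largest LFC per comparison, for PSMA2 and for PSMB5, PSMB6 and PSMB7, and other lists by their called genes, of which some genes are not reported here. PSMD7, PSMB1, PSMC3 and NFE2L1 were given in full after their values were seen. Alternatives were no replicate block, other normalizations and filters, DESeq2 1.42.0, ComBat-Seq (sva 3.50.0) before DESeq2, 2 groups alone and each library left out.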

Additional observations from a re-analysis of the deposited data

How the results depend on the processing

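The count of called genes among the 43 depended on the batch term and on single libraries, while the median LFC kept its sign in both treatments under every alternative. Both treatments were set against the same control libraries, so that their signs are not independent. Without control replicate 4 the medians were −0.073 in EC and −0.064 in PG/VG. In EC vs. control (5 called), the count was 0 with no replicate block, 1 with library size as the only scaling, 10 with ComBat-Seq before DESeq2 (PSMB6, PSMC3, PSMD7, PSME3 and PSMG3 added) and 0 with batch 4 left out, and without 1 library it ranged from 0 to 8. All genes called were 16 of 16030 with no replicate block, 2349 of 16030 with library size and 3099 of 16100 with ComBat-Seq. They were 1216 of 15488 with batch 4 left out and 1162 to 2172 without 1 library, against 2157 in the main fit. In PG/VG vs. control (1 called), the count among the 43 was 0 with no replicate block, 2 without a count filter, 0 with 10 counts required in every library, 7 with ComBat-Seq before DESeq2, 3 with the 2 groups fitted alone and 0 with batch 4 left out, and ranged from 0 to 3 with each library left out. All genes called were 1 with no replicate block, 936 without a count filter, 719 with 10 counts in every library and 1682 with ComBat-Seq. With the 2 groups alone they were 1179, with batch 4 left out 324 and without 1 library 192 to 1084. The main fit called 727. In EC vs. PG/VG (0 called), the count among the 43 was 1, PSMA6, with the 2 groups alone, and 0 to 1 with each library left out. All genes called were 137 in the main fit, 318 with the 2 groups alone and 32 to 208 without 1 library. The cause of these changes was not tested. With no replicate block, 4, 3 and 0 genes had an unadjusted p under 0.05 in the 3 comparisons in edgeR, and with batch 4 left out 6, 9 and 3. The pairing by batch changed calls in both treatments, and the batch comparison has no fit without the replicate block. In that comparison (14 called), 12 to 16 genes were called under the other settings and 11 to 15 with each library left out.

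Without 1 library, the median LFC lay between −0.14 and −0.073 in EC vs. control and between −0.12 and −0.064 in PG/VG vs. control. Library size as the only scaling gave −0.038 and −0.078, and moved the median of all genes to 0.068 and 0.040. In EC vs. PG/VG the median changed sign between settings, between −0.045 and 0.045. The PSMA2 row stayed below the control in each setting that kept it, at −1.23 to −0.97 in EC and −1.71 to −1.18 in PG/VG without 1 library. Summed with its overlapping gene it gave −1.09 and −1.49, and after seeing the data PSMA1, PSMA6 and PSMD9 were summed in the same way, without a call. DESeq2 with the batch did not call it in either treatment. PSMA2 and PSMA6 had the fewest counts, but the PG/VG libraries of PSMA6 differed beyond counting error. Their 95% intervals were 169 to 224 counts in replicate 2 and 51.0 to 84.0 in replicate 4. Scaled to library size, these libraries, of different batches, were at 7.98 and 2.83 CPM. The other genes had at least 219 counts in each library.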
